A study of Mus musculus with 12 samples.

Results

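Cells take up amino acids through carrier proteins of the solute carrier (SLC) families, and the transcripts of 7 of these families were followed here in mouse oocytes. The members are the rows of the deposited expression table whose gene symbol begins with Slc1a, Slc3a, Slc6a, Slc7a, Slc36a, Slc38a or Slc43a and a digit. The rule uses names alone, and it found 64 of the 24254 rows. Of these, 61 are transporter genes and 3 carry an opposite-strand symbol (Slc7a6os, Slc6a19os and Slc36a1os), which are named after a neighbour and are not transporters. The families also hold carriers of other cargo, such as Slc6a8 for creatine, Slc6a6 for taurine, Slc6a4 for serotonin and Slc43a3 for purine nucleobases, and carriers of the lysosome, such as Slc38a7 and Slc38a9. The members are therefore named below by their families, and not all of them are amino acid transporters of the plasma membrane.

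The RNA came from fully grown oocytes at the germinal vesicle (GV) stage of C57BL/6 mice aged 3 weeks, given 5 IU of PMSG, a hormone preparation that stimulates follicles, 46 h earlier. All 3 groups carry a gene trap in Marf1, which encodes a ribonuclease that oocytes need for meiosis, and each has 4 libraries of 80 oocytes. GT is the gene trap without a named injection, GTWT oocytes received mRNA that encodes wild type MARF1, and GTD272 oocytes mRNA that encodes MARF1 mutated at D272. Injected oocytes were kept for 48 h in medium with milrinone, which blocks the resumption of meiosis. Whether GT oocytes had a culture or a control injection is not stated, so injection, culture and the supplied protein cannot be told apart in either comparison with GT. No library of untrapped oocytes was analysed here. The labels tie no library to its own animals or culture, so a p-value here reflects the variation among these libraries, which may be technical.

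Amino acid carriers differ in their cargo and in what drives them. Sodium-coupled carriers of families 1, 6 and 38 can build up their cargo against a gradient, proton-coupled carriers of family 36 use protons, and most light chains of family 7 exchange one amino acid for another and must pair with a heavy chain of family 3 to reach the membrane. Growing oocytes lack uptake systems for some amino acids and receive these from cumulus cells through gap junctions. Glycine, carried by GLYT1 (Slc6a9), is known as an osmolyte of mouse eggs and early embryos, and SIT1 (Slc6a20a and Slc6a20b) carries proline and betaine there.

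Values are FPKM, a fragment count divided by transcript length and by the mapped fragments of a library, so levels of different genes are compared per length. Relative depth, read from the steps between low FPKM values, was 55.4% to 100% of the deepest library, and the absolute depth is not given by the files. Marf1 was at 1.60 ± 0.242 FPKM in GT, 9.12 ± 0.806 in GTD272 and 17.5 ± 5.08 in GTWT (SD, n = 4). All 12 oocyte markers passed the low-value filter, with summed levels of 8266 to 8501 FPKM in GT, 8457 to 8992 in GTD272 and 8488 to 8871 in GTWT. Gdf9 and Bmp15 made up most of these sums, and single markers moved. In GTWT against GT, limma called 5 higher (Gdf9, Kit, Zp1, Zp2 and Zp3) and 2 lower (Dazl and Oosp1), where 6.14% and 10.5% of all genes tested were. In GTD272 against GT it called 4 higher (Gdf9, Kit, Zp2 and Zp3) and 1 lower (Dazl), where 1.41% and 1.54% of all genes were. Kit was at 18.4 ± 1.19 FPKM in GT and 32.4 ± 1.66 in GTWT, and Dazl at 478 ± 20.9 and 350 ± 38.4 (SD, n = 4). Of 17 granulosa and cumulus cell markers, Ptx3 was at 0 in all libraries and 12 never reached 1 FPKM. Their summed level was 143 to 151 FPKM in GT, 128 to 137 in GTD272 and 120.5 to 129.9 in GTWT. Most of it was Nr5a2, and without this gene the sums overlapped, at 20.8 to 25.4, 18.4 to 24.3 and 19.3 to 26.2 FPKM. Limma called Nr5a2 lower than GT in GTWT (adjusted p = 0.00135) and in GTD272 (adjusted p = 0.0392). Kitl was at 10.3 to 15.6 FPKM and Cyp19a1 at 3.36 to 6.88 over the 12 libraries, while Inhba reached 1.98 and Has2 1.36. Of 9 theca and stroma markers 7 never reached 1 FPKM, with Acta2, Insl3 and Lhcgr at 0, while Ptch1 reached 4.34 and Pdgfra 1.60 FPKM. Of 9 blood and endothelium markers 7 were at 0, Ptprc and the 4 globin genes among them. Pecam1, an endothelial gene, was at 9.09 to 12.99 FPKM over the 12 libraries, with overlapping groups, and Cd68 reached 1.03. The part of these marker levels in the results below was not tested.

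Mouse cells that lack an amino acid raise the transcription factor ATF4 through the kinase GCN2. ATF4 binds a short DNA element, the amino acid response element, near several transporter genes. Its core was searched as TGATGNAAN, on both strands, from 250 bases before to 50 after each start in RefSeq's promoter windows of GRCm38.p6. The windows below are shown because they were the members' windows that held the letters. All 3 genes are transcribed from the minus strand, sequences are written 5′ to 3′ in the direction of transcription, and capitals mark the match. Slc7a11 encodes the cystine and glutamate exchanger xCT and its window is at chr3:50443564-50443863. Slc1a4 encodes ASCT1, an exchanger of small neutral amino acids, at chr11:20332664-20332963. Slc7a7 encodes the light chain y+LAT1, which exports cationic amino acids, at chr14:54417895-54418194.
Slc7a11: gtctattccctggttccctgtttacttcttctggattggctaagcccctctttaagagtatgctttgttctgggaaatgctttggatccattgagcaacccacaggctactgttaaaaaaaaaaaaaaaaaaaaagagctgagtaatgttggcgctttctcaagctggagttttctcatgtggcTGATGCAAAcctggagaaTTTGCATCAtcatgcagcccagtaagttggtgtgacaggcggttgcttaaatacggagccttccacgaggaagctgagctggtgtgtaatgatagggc
Slc1a4: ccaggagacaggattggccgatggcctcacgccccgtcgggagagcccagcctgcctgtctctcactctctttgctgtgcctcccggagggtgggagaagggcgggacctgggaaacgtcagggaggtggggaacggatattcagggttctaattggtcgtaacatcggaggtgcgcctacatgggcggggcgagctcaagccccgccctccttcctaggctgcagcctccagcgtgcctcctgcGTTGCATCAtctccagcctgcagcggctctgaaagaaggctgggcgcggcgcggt
Slc7a7: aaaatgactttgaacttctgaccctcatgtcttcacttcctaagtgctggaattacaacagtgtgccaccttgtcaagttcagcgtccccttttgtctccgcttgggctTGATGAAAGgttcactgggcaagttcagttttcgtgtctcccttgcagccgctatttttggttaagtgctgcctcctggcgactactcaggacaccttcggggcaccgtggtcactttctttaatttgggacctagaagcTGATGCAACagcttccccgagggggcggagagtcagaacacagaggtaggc

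The Slc7a11 window held 2 matches, 1 on each strand, whose first bases lay 66 and 48 bases before the start. Such a pair of elements facing opposite ways is known from the mouse Slc7a11 promoter. Slc1a4 held 1 match on the opposite strand, beginning 5 bases before the start. Slc7a7 held 2 matches on the coding strand, beginning 141 bases and 1 base before the start, and a second, overlapping Slc7a7 window held the latter again. In all, 46 members had 67 windows, of which 4 held the letters (5.97%), against 3.95% of all 32851 windows. By gene, this was 3 of the 17 members with a window that were tested below (17.6%), 0 of the 29 that were not, and 2.93% of all 8867 tested genes with a window. A match is a description of these letters and not a measured site. Of the 3 genes, Slc1a4 alone was called in a comparison below, in GTD272 against GT. Slc6a7, Slc7a2 and Slc6a8, also called below, had no window and could not be searched.

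A gene entered the tests if 4 or more libraries reached an FPKM of 1, which 11687 genes did. Among the members 24 passed and 40 did not. No member passed through a single group, and 21 were at 1 FPKM or more in all 12 libraries. Of the 40 others, 11 were at 0 in all libraries and 29 were above 0 in at least 1 library, with a highest value of 1.17 FPKM. The families differed in how many members passed. Family 6 had 8 of 20 rows tested and family 7 had 8 of 16, of which 1 is Slc7a6os. Family 38 had 4 of 11, family 36 had 1 of 5, family 43 had 1 of 3, family 3 had 1 of 2 and family 1 had 1 of 7.

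The most abundant transporter transcript was Slc6a9, whose product takes up glycine with sodium. Its FPKM was 79.8, 72.7, 79.7 and 73.9 in the GT libraries, 93.0, 76.4, 89.9 and 72.8 in GTD272, and 80.0, 80.8, 74.4 and 79.7 in GTWT. The groups overlapped, and GTWT lay 0.04 above GT on the log2 scale (95% interval -0.12 to 0.20) with no call. The locus of Slc6a9 also holds Ccdc24, at 0 to 1.37 FPKM, and whether strand was used in counting is not stated.

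Next came Slc3a2, the heavy chain CD98hc, with 45.8, 46.4, 49.5 and 47.2 FPKM in GT, 49.998, 48.5, 50.1 and 45.0 in GTD272, and 51.1, 52.0, 48.5 and 49.7 in GTWT. Every Slc6a9 value lay above every Slc3a2 value, and every Slc3a2 value above every value of Slc38a10, the next in order. Below these, neighbours in the order overlapped in range over the 12 libraries. Slc7a6os was listed still higher, at 102 ± 6.91 FPKM in GT, 91.0 ± 8.01 in GTD272 and 91.6 ± 3.50 in GTWT (SD, n = 4), but it is the opposite-strand neighbour of Slc7a6 and was not called. Its range overlapped that of Slc6a9. In all, 11 members had a mean above 10 FPKM.

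**Figure D1:**
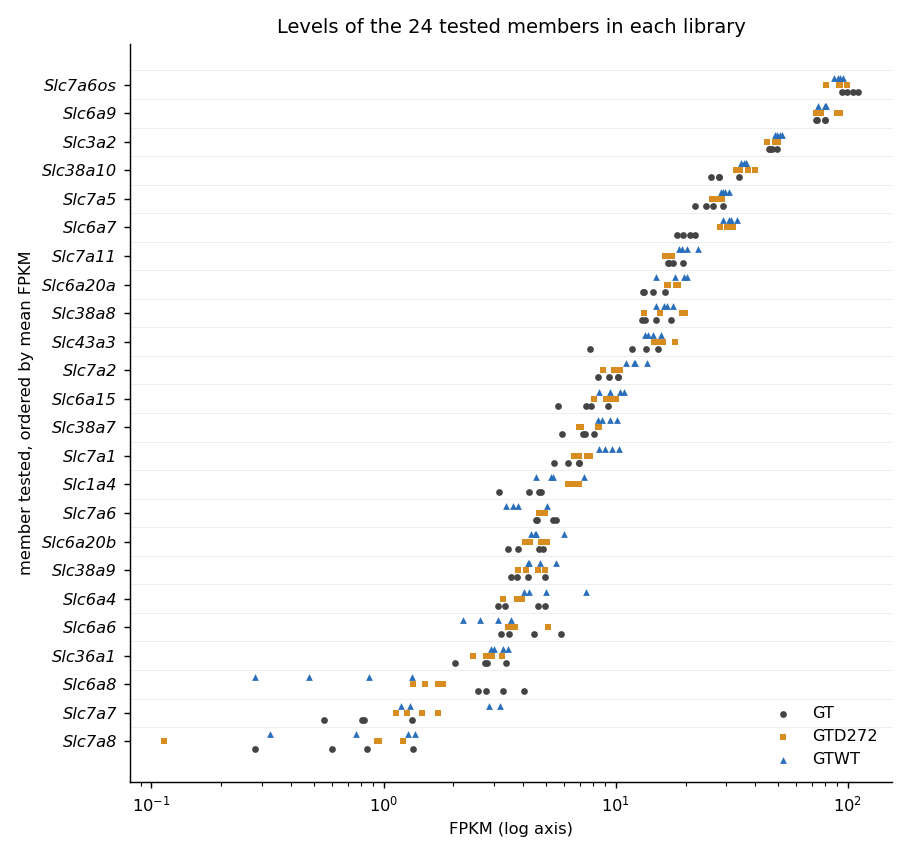
FPKM of each of the 24 tested members in each library, on a log axis, with members ordered by their mean over the 12 libraries. Slc7a6os, Slc6a9 and Slc3a2 lie above the rest, and Slc6a8 separates by group, with the GTWT libraries at 0.280 to 1.33 FPKM and the GT libraries at 2.56 to 4.03.

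The heavy chain and its light chains were present at like levels. Slc3a1 (rBAT), the heavy chain of kidney and gut, was at 0 in 8 libraries and at most 0.324 FPKM, and it shares its locus with Prepl. The 6 known light chains of Slc3a2 (Slc7a5, Slc7a6, Slc7a7, Slc7a8, Slc7a10 and Slc7a11) summed to 1.06 ± 0.0550 times the Slc3a2 level in GT, 1.06 ± 0.0271 in GTD272 and 1.13 ± 0.0390 in GTWT (SD, n = 4). The ranges of this ratio overlapped between groups, from 0.981 to 1.10 in GT, 1.04 to 1.10 in GTD272 and 1.09 to 1.17 in GTWT. The light-chain sum itself was at 45.0 to 54.6 FPKM in GT, 49.6 to 52.4 in GTD272 and 55.6 to 57.5 in GTWT. All GTWT libraries thus lay above all others in this sum, which was not tested.

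Slc7a5 (LAT1), the exchanger of large neutral amino acids such as leucine, made up 51.0% ± 2.14 of the light-chain FPKM in GT, 53.2% ± 1.23 in GTD272 and 52.0% ± 2.32 in GTWT. Its FPKM was 21.9, 26.4, 29.1 and 24.6 in GT, 28.7, 26.9, 27.9 and 26.04 in GTD272, and 30.8, 29.1, 28.6 and 29.5 in GTWT. GT replicate 1 stood lowest and the groups overlapped. The difference of 0.21 between GTWT and GT did not pass (SE 0.08, limma adjusted p = 0.0875).

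Slc7a11 held 35.7% ± 2.66 of the light-chain FPKM in GT, 33.1% ± 1.67 in GTD272 and 35.7% ± 3.14 in GTWT. Its values were 17.7, 16.9, 19.5 and 16.8 FPKM in GT, 16.3, 17.4, 16.9 and 17.4 in GTD272, and 19.2, 20.3, 22.7 and 18.7 in GTWT. All GTWT libraries lay above all GTD272 libraries, while GTWT and GT overlapped. Among the smaller light chains, Slc7a6 (y+LAT2) was at 5.00 FPKM in GT, 4.84 in GTD272 and 3.96 in GTWT on average. Slc7a7 was at 0.879, 1.39 and 2.13, and Slc7a8 (LAT2) at 0.768, 0.805 and 0.935. The Slc7a7 locus also holds Oxa1l, at 7.33 to 12.8 FPKM, so its values are uncertain.

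**Figure D2:**
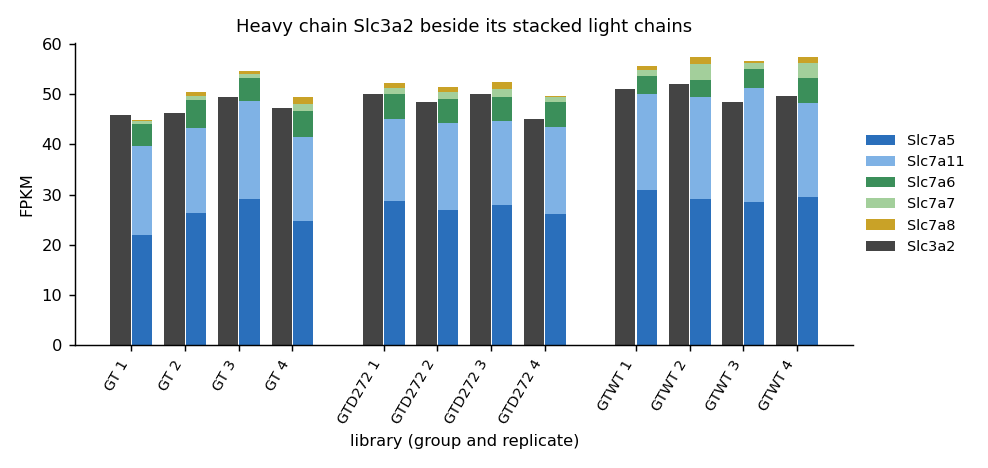
FPKM of the heavy chain Slc3a2 (dark bars) beside the stacked FPKM of its light chains, for each library. The stacks reach 45.0 to 57.5 FPKM against 45.0 to 52.0 FPKM of Slc3a2, and Slc7a5 and Slc7a11 fill most of each stack.

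In GTWT against GT, the comparison that asks what changes after supply of wild type MARF1, 5 tested members rose and 1 fell. The risers were the proline carrier gene Slc6a7, the cationic amino acid carrier genes Slc7a1 and Slc7a2, the family 38 member Slc38a10 and the imino acid carrier gene Slc6a20a. The creatine carrier gene Slc6a8 fell. Calls required an adjusted p (Benjamini-Hochberg) under 0.05 in limma, over all 11687 genes. Over all of these, 6.14% were called higher and 10.5% lower, 16.6% in all. The count of 5 of 24 came to 3 without GT replicate 2, GTWT replicate 1 or GTWT replicate 2, and that of 1 of 24 came to 2 without GTWT replicate 4, so neither is read as setting the members apart from that background. The median log2 difference was 0.19 over the 24 members and -0.01 over all genes, and 20 members lay above 0, as did 48.3% of all genes. In these pools, fewer oocytes holding a transcript and less of it per oocyte cannot be told apart.

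The split of all calls moved with scaling. Without small RNA genes, the FPKM sum of each GTWT library lay below that of each GT and GTD272 library. As deposited, 1223 genes were lower and 717 higher, after quantile normalization 976 and 984, and with equal sums without small RNA genes 1018 and 971. Among the members, quantile normalization gave 8 higher and 1 lower, and equal sums gave 7 and 1.

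Slc6a7 had the smallest adjusted p of the members. It encodes PROT, a sodium-coupled proline carrier best known from brain synapses, and lies on chromosome 18 (60995376 to 61014416, RefSeq, GRCm38). Its FPKM was 22.04, 19.4, 18.3 and 20.99 in GT, 30.6, 28.2, 32.2 and 30.04 in GTD272, and 31.4, 30.9, 28.9 and 33.4 in GTWT. All 8 libraries of injected oocytes lay above all GT libraries, and the 2 injected groups overlapped. GTWT was 0.60 above GT on the log2(FPKM + 1) scale (SE 0.07, limma adjusted p = 0.000213). GTD272 was 0.56 above GT (SE 0.07, adjusted p = 0.00175), a contrast that shares the GT libraries. The direct difference between GTWT and GTD272 was 0.04 (95% interval -0.12 to 0.20).

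Slc7a1 and Slc7a2 encode CAT1 and CAT2, which let arginine, lysine and ornithine into the cell. Slc7a1 (chromosome 5, 148327410 to 148399904) was at 5.44, 6.92, 6.22 and 6.96 FPKM in GT, 7.49, 6.98, 6.59 and 7.74 in GTD272, and 8.99, 9.66, 10.4 and 8.45 in GTWT. Each GTWT library lay above each library of both other groups, which overlapped with each other. Slc7a1 rose by 0.49 in GTWT against GT (SE 0.10, limma adjusted p = 0.00608).

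Slc7a2 (chromosome 8, 40862341 to 40922070) was at 10.3, 9.35, 10.3 and 8.42 FPKM in GT, 8.80, 10.1, 10.4 and 9.85 in GTD272, and 12.03, 13.6, 12.1 and 11.1 in GTWT. Here too the GTWT libraries were the 4 highest of the 12. Slc7a2 rose by 0.32 in GTWT against GT (SE 0.09, limma adjusted p = 0.0324), a call that ended when GT replicate 2 or 4 or GTWT replicate 1, 2 or 3 was left out (adjusted p = 0.0534 to 0.0929) and with only the 2 groups in the fit (0.0516). Of the other 3 rows of this class, Slc7a3 (CAT3) was at most at 0.602 FPKM, and Slc7a4 and Slc7a14 at most at 0.176 and 0.101.

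Slc38a10 (chromosome 11, 120103951 to 120151351) belongs to the sodium-coupled neutral family. Its FPKM was 27.9, 28.0, 25.9 and 34.0 in GT, 37.1, 33.0, 39.7 and 34.2 in GTD272, and 36.6, 36.4, 34.7 and 35.7 in GTWT. GT replicate 4 stood above the other GT libraries, and it overlapped GTD272 but not GTWT. Slc38a10 rose by 0.31 in GTWT against GT (SE 0.08, limma adjusted p = 0.0230), while the difference of 0.31 in GTD272 did not pass (adjusted p = 0.0619). The GTWT call ended when GT replicate 1, 2 or 3 or GTWT replicate 1 or 2 was left out (0.0524 to 0.0700) and with no filter on low values (0.0605).

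Slc6a20a (chromosome 9, 123636907 to 123678832) was at 16.4, 13.1, 14.5 and 13.2 FPKM in GT, 18.1, 18.6, 16.7 and 16.7 in GTD272, and 18.02, 14.9, 19.7 and 20.3 in GTWT. GTWT replicate 2 fell within the GT range, and the other GTWT libraries lay above it. Slc6a20a rose by 0.33 in GTWT against GT (SE 0.10, limma adjusted p = 0.0424). This call ended when replicate 2, 3 or 4 of GT, 1 or 3 of GTD272 or 1, 3 or 4 of GTWT was left out (0.0517 to 0.115), with no filter (0.0984), with only the 2 groups (0.0742) and with the replicate block (0.0623). Of the 50-base stretches of its transcripts, 15.3% also occur in those of its near copy Slc6a20b, so its value is uncertain. Slc6a20b was at 4.19, 4.56 and 4.84 FPKM in GT, GTD272 and GTWT on average and was not called.

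**Figure D3:**
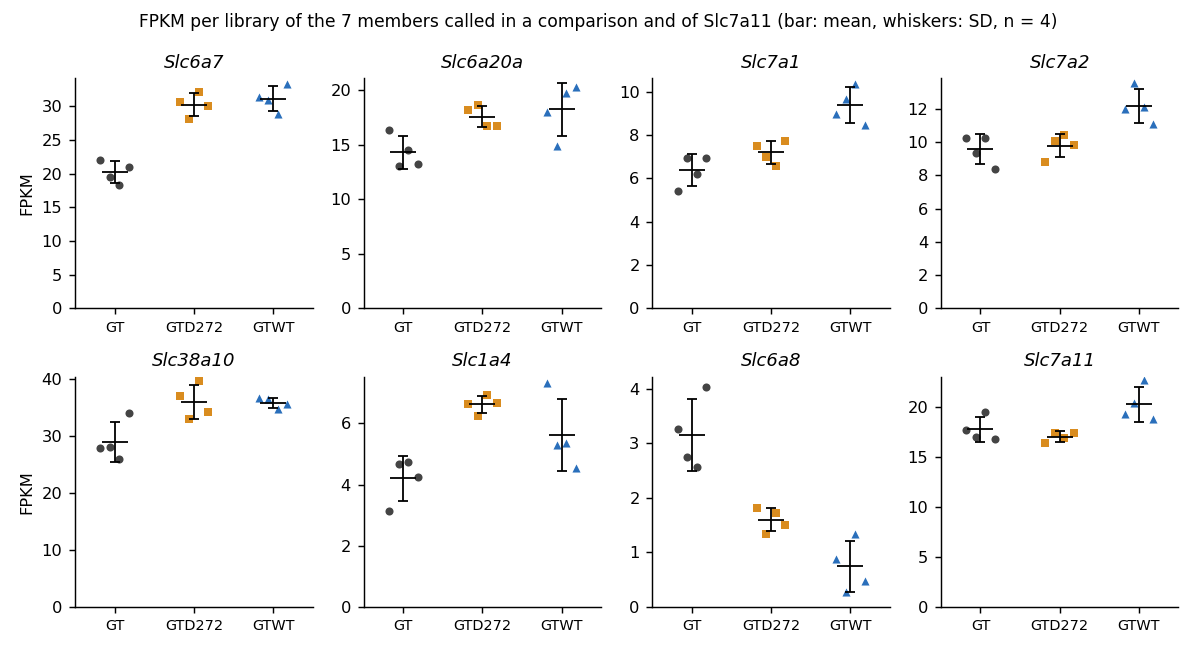
FPKM in each library of the 7 members called in a comparison and of Slc7a11, with the mean (bar) and SD (whiskers, n = 4) of each group. Slc6a7 is higher in both injected groups, Slc7a1 and Slc7a2 are highest in the 4 GTWT libraries, and Slc6a8 is lower in the GTWT libraries than in all GT libraries.

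The member that fell, Slc6a8 (chromosome X, 73673133 to 73682502), encodes the creatine carrier. Its FPKM was 3.26, 2.75, 2.56 and 4.03 in GT, 1.80, 1.34, 1.72 and 1.51 in GTD272, and 0.870, 0.280, 1.33 and 0.475 in GTWT. No GT library overlapped either injected group, and the highest GTWT library lay just below the lowest GTD272 library. Slc6a8 fell by 1.28 on the log2(FPKM + 1) scale in GTWT against GT (SE 0.19, limma adjusted p = 0.000915). The differences of -0.67 in GTD272 against GT (SE 0.19, adjusted p = 0.0814) and of -0.61 in GTWT against GTD272 (SE 0.19, adjusted p = 0.114) did not pass. In the authors' deposited table Slc6a8 has a log2 fold change of -2.08 in GTWT against GT and a q-value of 1.

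The low FPKM values of some members were whole multiples of 1 step once scaled by relative depth, within 0.03 of a whole number, and so gave fragments per library up to an unknown common factor. For Slc6a8 these came to 23, 35, 25 and 44 fragments in GT, 17, 11, 18 and 13 in GTD272, and 9, 3, 12 and 4 in GTWT, or 127, 59 and 28 in all. The fragments are derived from the FPKM, so the like order of the groups adds no support. Counting error alone would be large at these sizes if the common factor were near 1, which is not known.

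Of 15 members with such whole fragments, 3 more are shown, chosen after their values were seen. Slc6a14, the broad carrier ATB0,+ and like Slc6a8 on the X chromosome, gave 5, 5, 6 and 7 fragments in GT, 7, 4, 8 and 4 in GTD272, and 0, 1, 1 and 4 in GTWT. Its 4 GTWT values held 6 fragments against 23 in each other group, but it was under the filter and had no test there. With no filter its difference of -0.51 in GTWT against GT did not pass (limma adjusted p = 0.0680). Slc1a3, a glutamate carrier gene, gave 3 fragments in each GT library, 1, 0, 2 and 1 in GTD272 and 0, 1, 1 and 0 in GTWT. It was lower in GTWT with no filter (-0.30, limma adjusted p = 0.0199), on 12 fragments against 2. Other members with few fragments were highest in GTWT. In all GT, GTD272 and GTWT libraries, Slc1a5 gave 3, 4 and 11 fragments, Slc7a3 gave 0, 5 and 6, and Slc6a3, the dopamine carrier gene, gave 1, 2 and 6. The X chromosome holds 4 members, of which Slc6a8 alone reached 1 FPKM, while Slc6a14, Slc7a3 and Slc38a5 never did.

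**Figure D4:**
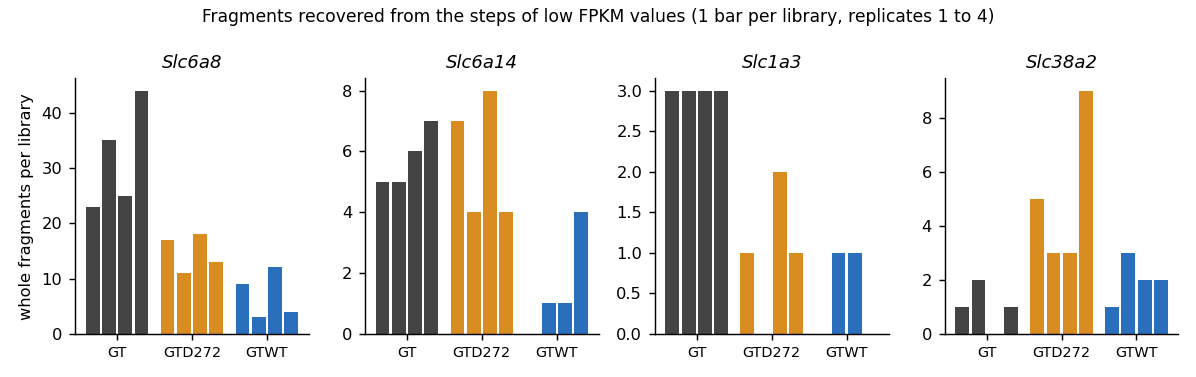
Whole fragments per library, recovered from the steps of low FPKM values, for Slc6a8, Slc6a14, Slc1a3 and Slc38a2, with 1 bar per library and the replicates of each group in order. Slc6a8 and Slc6a14 are lowest in GTWT, and Slc38a2 reaches 9 fragments in GTD272 replicate 4.

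Several members stood near the threshold in GTWT against GT. Slc38a7, a lysosomal glutamine exporter, was at 5.88, 8.05, 7.23 and 7.36 FPKM in GT and 10.1, 8.42, 9.46 and 8.69 in GTWT. The libraries did not overlap, but the difference of 0.33 (SE 0.11) had a limma adjusted p of 0.0569. Slc7a7 was at 0.554, 0.811, 0.827 and 1.32 FPKM in GT and 1.19, 3.18, 1.2997 and 2.84 in GTWT, with a difference of 0.69 (SE 0.23, adjusted p = 0.0531), and GT replicate 4 overlapped GTWT. Slc6a15, a branched-chain amino acid and proline carrier gene, was at 7.55 FPKM in GT and 9.78 in GTWT on average (0.35, SE 0.13, adjusted p = 0.0858). The taurine carrier gene Slc6a6 was lower in mean, at 4.23 and 2.87 FPKM (-0.42, SE 0.18, adjusted p = 0.121). With an unadjusted p under 0.05 there were 15 of 24 members, against 30.9% of all genes. Libraries of GTWT and GT did not overlap for 5 members that were higher, namely Slc6a7, Slc7a1, Slc7a2, Slc38a10 and Slc38a7, and for 1 that was lower, Slc6a8. Over all genes these shares were 9.32% and 12.6%.

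The authors' deposited table, at a q-value under 0.05, has 8 of the 64 members higher in GTWT than in GT and 1 lower. Over its 24254 genes 3.87% are higher and 5.08% lower by that rule. The 8 are the 5 risers named above with Slc1a4, Slc38a7 and Slc6a15, and the lower one is Slc6a6 (q = 0.00397).

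In GTD272 against GT, which asks what changes after supply of the mutated protein, 2 members rose, Slc6a7 and Slc1a4, and 0 fell. Over all genes 1.41% were called higher and 1.54% lower by limma, 2.95% in all. These shares rest on 345 calls, which came to 111, 179, 130 and 224 when GT replicate 1, 2, 3 or 4 was left out and to 147, 138 and 228 when GTD272 replicate 1, 3 or 4 was. At an unadjusted p under 0.05 there were 7 members, and 19% of all genes, and the authors' deposited table has 0 members lower against 1.73% of its genes. The median log2 difference was 0.10 over the 24 members and -0.01 over all genes, and 18 members lay above 0, as did 48.7% of all genes.

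Slc1a4 (chromosome 11, 20302180 to 20332713) was at 3.15, 4.68, 4.75 and 4.25 FPKM in GT, 6.64, 6.26, 6.94 and 6.67 in GTD272, and 7.32, 5.28, 5.37 and 4.56 in GTWT. The GTD272 libraries lay together above all GT libraries. GTWT replicate 4 fell within the GT range, replicates 2 and 3 lay between the GT and GTD272 ranges, and replicate 1 lay above both. Slc1a4 rose by 0.56 in GTD272 against GT (SE 0.14, limma adjusted p = 0.0484), and the difference of 0.34 in GTWT did not pass (SE 0.14, adjusted p = 0.111). Leaving out any 1 library of GT or GTD272, or replicate 2 or 3 of GTWT, ended the call (0.0554 to 0.124), as did a fit with no filter (0.113) or with the replicate block (0.0926). It was the sole member of family 1 that could be tested. The neutral exchanger gene Slc1a5 was at most at 0.569 FPKM and Slc1a1 at most at 0.767, and the glutamate carrier genes Slc1a2, Slc1a6 and Slc1a7 were at 0 in all libraries.

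GTD272 and GT libraries did not overlap for 3 members that were higher, Slc6a7, Slc1a4 and Slc6a20a, and for 1 that was lower, Slc6a8. These shares were 5.37% and 7.59% over all genes. The authors' deposited table has 4 members higher, Slc1a4, Slc6a7, Slc38a10 and Slc43a3, against 1.32% of its genes. Slc43a3, the purine nucleobase carrier gene, was at 7.77, 13.5, 15.2 and 11.7 FPKM in GT and 18.1, 15.02, 15.98 and 14.7 in GTD272. GT replicate 1 stood lowest, GT replicate 3 lay within the GTD272 range, and limma's difference of 0.41 did not pass (SE 0.15, adjusted p = 0.161).

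**Figure D5:**
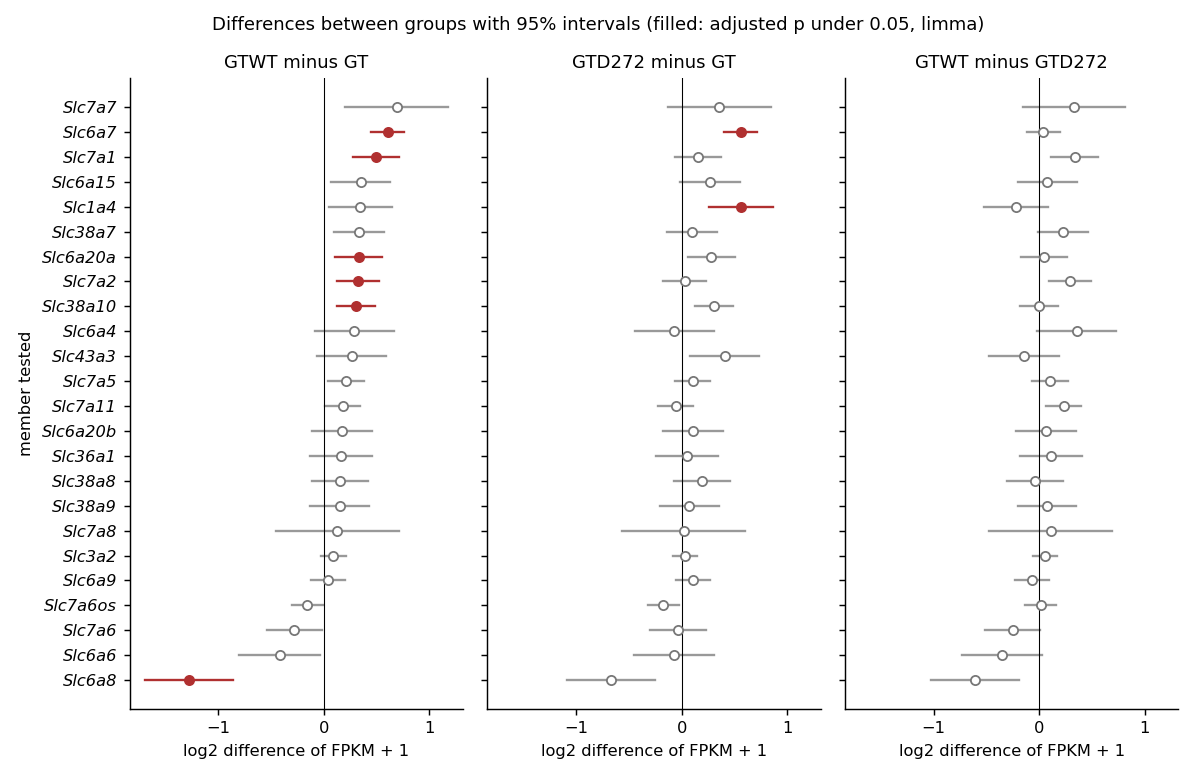
Log2 differences of FPKM + 1 for the 24 tested members in each comparison, with 95% intervals and filled red points for an adjusted p under 0.05. In GTWT minus GT 20 members lie above 0 and 6 are filled, in GTD272 minus GT 2 are filled, and in GTWT minus GTD272 0 are filled.

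GTWT and GTD272, both injected and cultured, were compared directly, although the Marf1 level also differed between them. By limma 0 of the 24 members were called, while 0.625% of all genes were called higher and 1.84% lower, 2.46% in all. These shares rest on 288 calls, which came to 167, 113 and 171 when GTD272 replicate 1, 2 or 4 was left out and to 181 and 153 when GTWT replicate 2 or 4 was. At an unadjusted p under 0.05 there were 4 members, against 18.4% of all genes, and the authors' deposited table has 3 members higher and 0 lower, against 0.726% and 1.79% of its genes. The median difference was 0.06 over the members and -0.01 over all genes, and 16 members lay above 0, as did 47.3% of all genes.

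The 4 members were Slc7a1 (0.34, SE 0.10, adjusted p = 0.0986), Slc7a2 (0.29, SE 0.09, adjusted p = 0.115), Slc7a11 (0.23, SE 0.08, adjusted p = 0.122) and Slc6a8 (-0.61, SE 0.19, adjusted p = 0.114), all by limma. Libraries did not overlap for each of these and for the serotonin carrier gene Slc6a4, at 3.29 to 3.94 FPKM in GTD272 and 4.03 to 7.43 in GTWT. For Slc6a8 this rests on 1.330 FPKM in GTWT replicate 3 against 1.337 in GTD272 replicate 2. In fragments these libraries held 12 and 11, so the groups overlapped. Over all genes 4.26% were higher and 5.93% lower without overlap (10.2% in all), against 4 and 1 of the 24 members. The 3 members of the authors' deposited table are Slc7a1 (q = 0.00628), Slc7a2 (q = 0.0219) and Slc7a11 (q = 0.0389).

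The remaining sodium-coupled neutral carriers were not called. Slc38a3 (SNAT3), through which cumulus cells supply amino acids to the oocyte, was at 0 in all 12 libraries. Slc38a2 (SNAT2), a carrier induced by amino acid shortage in many cells, gave 1, 2, 0 and 1 fragments in GT, 5, 3, 3 and 9 in GTD272 and 1, 3, 2 and 2 in GTWT, and did not exceed 0.884 FPKM. In FPKM its 4 GTD272 libraries, at 0.243 to 0.884, were the highest of the 12. However, GTD272 replicate 3 (0.243 FPKM) and GTWT replicate 2 (0.238 FPKM) both held 3 fragments. Slc38a2 was under the filter and had no test there. With no filter its difference of 0.43 in GTD272 against GT did not pass (limma adjusted p = 0.167). Nor did that of -0.30 in GTWT against GTD272 (adjusted p = 0.364). Slc38a8 was at 12.99, 13.4, 14.9 and 17.3 FPKM in GT, 19.9, 19.2, 15.6 and 13.3 in GTD272, and 16.7, 16.1, 14.98 and 17.7 in GTWT, and the groups overlapped. Slc38a9, the lysosomal arginine sensor, averaged 4.12, 4.38 and 4.67 FPKM, and Slc36a1, the one proton-coupled carrier gene tested, 2.73, 2.84 and 3.15.

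Genes that act beside the carriers were counted from lists of textbook members, and their calls stand beside the shares over all genes, 6.14% higher and 10.5% lower in GTWT against GT and 1.41% and 1.54% in GTD272 against GT. These lists are small, and no list is set apart from those shares. Of 32 tested genes of amino acid sensing by mTORC1, the kinase complex that carriers such as SLC38A9 feed, Rraga and Sec13 rose and Seh1l and Sesn1 fell in GTWT against GT. In GTD272 Lamtor1 rose and Sesn1 fell. Sesn1, a leucine-binding sestrin family gene, was at 9.14 ± 0.571 FPKM in GT, 6.11 ± 0.599 in GTD272 and 5.68 ± 1.04 in GTWT (SD, n = 4). Of 22 tested genes of the GCN2 and ATF4 response, Chac1 and Stc2 rose and Cebpb and Ppp1r15a fell in GTWT, and Chac1 rose in GTD272.

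Of 15 tested genes of sodium and proton gradients, which drive the coupled carriers, Fxyd6 rose and Atp6v1h fell in GTWT against GT. In GTWT against GTD272 Fxyd6 was again called higher and Atp6v1h lower, where 0.625% and 1.84% of all genes were. The other lists had 0 calls there, and this small list is not set apart from those shares. Fxyd6, a regulator of the sodium pump, was at 22.6 ± 2.26 FPKM in GT, 25.7 ± 1.54 in GTD272 and 34.4 ± 2.45 in GTWT (SD, n = 4). Of 10 tested amino acid and related carriers outside the rule, 3 fell in GTWT against GT, where 10.5% of all genes did. These were the mitochondrial carrier genes Slc25a13 and Slc25a38 and the inositol carrier gene Slc5a3. In GTWT against GT the median log2 differences of the 4 lists, in the order given here, were 0.11, 0.04, 0.07 and -0.12, against -0.01 over all genes.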

How the data were processed

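Per the labels' design text and the submitters' processing notes, 150 bp read pairs were aligned to mm10 (GRCm38) with TopHat2 2.0.13, and the authors computed FPKM with Cufflinks 2.2.1. The gene annotation and any use of strand are not given in the sources used here. The deposited table also holds log2 fold changes with p-values and q-values, which the authors made with Cuffdiff, per the labels. Header names stood 1 column left of the values and were realigned, and a spreadsheet had turned 27 symbols into dates, none of them a member.

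The test was run on log2(FPKM + 1) with limma 3.58.1 (R 4.3.3), a trend of variance on mean and 1 model of 12 libraries, for genes at FPKM 1 or more in 4 or more libraries. Differences on this scale understate changes of low genes. Groups came from the sample titles, and p-values were adjusted by Benjamini-Hochberg over 11687 genes, with calls under 0.05. In a simulation of GTWT against GT, the fit recovered 48% of log2 changes of 0.5 and 82% of log2 changes of 1. For GTD272 against GT these were 39% and 84%, and for GTWT against GTD272 51% and 83%. Fewer genes were changed in each simulation than were called in the data, so these shares need not hold for the tests above. FPKM carries no counts, but in 15190 pairs of low values 83.2% stood in a ratio of small whole numbers (5 at most, log2 tolerance 0.02), which gave the relative depths. Small RNA genes took 15.2% to 84.0% of the FPKM sums. Without them the sums were 411704 to 415588 in GT, 408216 to 416775 in GTD272 and 400628 to 404959 in GTWT.

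Coordinates and promoters are RefSeq's on GRCm38.p6, in which all 64 members were found. Members and gene lists were chosen with earlier results of these data known. Members are named that were called, had 1 of the 10 highest mean levels, had 1 of the 8 largest differences in a comparison, or belong to a fixed set of 6 (Slc3a1, Slc3a2, Slc6a9, Slc7a5, Slc38a2 and Slc38a3). Others are given by level, except Slc6a14, Slc1a3, Slc1a5, Slc7a3 and Slc6a3. These were picked after their values were seen and are given by fragments, Slc6a14 and Slc1a3 also with a test. Alternatives were another pseudocount, filters, scalings, array weights, 2-group fits, a replicate block, the authors' q-values and each library left out.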

Additional observations from a re-analysis of the deposited data

Results flagged for a closer look

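Dixon's test at the 95% level was run on the 4 libraries of each group for the members, over 62 groups, and 2 held a library that stood apart from the rest. Chance gives about 1 in 20. Slc6a6, the taurine carrier gene, was at 5.11 FPKM in GTD272 replicate 3 and at 3.43 to 3.67 in the other GTD272 libraries. Slc6a9, the glycine carrier gene, was at 74.4 FPKM in GTWT replicate 3 and at 79.7 to 80.8 in the other GTWT libraries. Neither gene was called in a comparison by limma.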

How the results depend on the processing

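No alternative turned the sign of a member's called difference. Of 1305 values of named members under alternatives, 1226 kept their sign and their side of the threshold, 36 lost a call, 26 gained one and 17 turned sign, all of these for differences of at most 0.0709 in size that were called neither as reported nor under the alternative. With each library left out in turn, the GTD272 minus GT difference ran from -0.158 to 0.0226 for Slc6a4, -0.178 to 0.0637 for Slc6a6, -0.0254 to 0.0744 for Slc7a2 and -0.0711 to 0.00812 for Slc7a6. The GTWT minus GTD272 difference ran from -0.0417 to 0.0440 for Slc38a10, -0.144 to 0.0392 for Slc38a8, -0.00703 to 0.133 for Slc6a20a and -0.0452 to 0.0577 for Slc7a6os. For Slc38a10 it was also 0.0292 after quantile normalization, 0.0284 with equal sums, 0.0065 with median ratio scaling and 0.0062 in the authors' deposited table. The cause was not tested. In GTWT against GT the calls of Slc6a7, Slc7a1 and Slc6a8 held without each library in turn, and that of Slc6a7 in GTD272 against GT did too. With each library left out in turn, members higher in GTWT against GT numbered 3 to 5 and members lower 1 to 2, members higher in GTD272 against GT 1 to 2, and members lower in GTWT against GTD272 0 to 1 (Slc6a8 without GTWT replicate 3). Over all genes the calls ranged from 1332 to 1928 (1940 with every library), 111 to 377 (345) and 113 to 308 (288). With no filter, members higher and lower in GTWT against GT were 3 and 2, members higher in GTD272 against GT 1, and all calls 1293, 145 and 122 in the 3 comparisons. With a filter of FPKM 5, 0 members were lower in GTWT against GT, since Slc6a8 was not tested. Quantile normalization gave 8 members higher there. With only the groups compared in the fit, 3 were higher there and 124 genes were called between GTWT and GTD272. By the authors' q-values 8, 4 and 3 members were higher in the 3 comparisons, and all calls were 738 in GTD272 against GT and 610 in GTWT against GTD272.

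Between same-numbered libraries, 12 correlations of deviations from the group means ran from -0.22 to 0.21, and 2 were above 0.1. Between different-numbered libraries they ran from -0.17 to 0.23. These values show no pairing by number but cannot exclude shared animals or cultures. With the replicate number as a block, 4 members were higher and 2 lower in GTWT against GT (Slc6a6 joined, adjusted p = 0.0481), 1 was higher in GTD272 against GT, and 194 and 187 genes were called in GTD272 against GT and GTWT against GTD272.

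With 4 libraries a group and members of few fragments, a difference that missed the threshold is not shown to be absent. Absolute depth is unknown, so no counting interval is given.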
